A study of Mus musculus with 21 samples.

Results

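The genes of monocyte recruitment, chosen by name, were followed through the single-cell libraries of an MT-ret malignant melanoma (MM) model. They were the chemokine genes Ccl2, Ccl7, Ccl8 and Ccl12, the receptor Ccr2, and the pair Cx3cl1 and Cx3cr1. These 7 of the 32285 genes in the count table comprised 5 ligands and 2 receptors, and all 7 were detected. MT-ret tumor fragments had been placed under the skin of mT/mG mice, in which every host cell carries a membrane tdTomato and no Cre is present. The primary tumor was resected and lung metastases grew later, so the primary tumor and the lung metastasis came from different organs. The compared groups were the tdTomato+ tumor microenvironment (TME) of primary tumors and of lung metastases, the lung of unchallenged mice, and sorted tdTomato- MM cells of both tumor sites. The transplanted mice were adults of both sexes, and no group carried a treatment. Organ and tumor cannot be told apart wherever primary tumors are compared with lung.

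CCL2, CCL7, CCL8 and CCL12 are small secreted chemokines that draw leukocytes towards their source, and CCR2 is the receptor by which inflammatory monocytes leave the bone marrow and enter tissue. CX3CL1, or fractalkine, is unusual in being held on the cell membrane by a mucin stalk until proteases such as ADAM10 and ADAM17 release it, and it is known from endothelium and neurons. Its receptor CX3CR1 marks the nonclassical monocytes that patrol vessel walls and many tissue macrophages.

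The table held 110283 barcodes under 24 library names. There were 5 names that copied other names with identical barcodes and counts, and these 9924 cells were counted once, which left 100359 cells in 16 libraries. There were 4 libraries each of unchallenged lung, lung metastasis TME and primary tumor TME, and 4 of sorted MM cells. In the tumor groups the replicate called 1-3 joins the library names of 1 sequencing run. Library names place replicates 1 and 1-3 in run 1, replicates 4 in run 2 and replicates 5 and 6 in run 3. By the mouse names, lung metastases 5 and 6 came from the same mice as primary tumors 5 and 6, the joined libraries 1-3 shared some of their mice, and lung metastasis 4, primary tumor 4 and the lungs came from different mice. Any 2 libraries shared at most 227 barcodes, 1.0911% of the smaller one. The libraries held between 303 and 30419 cells, with median depths from 1203 to 5356 UMIs per cell. Levels are given as UMIs per 1000000 UMIs (CPM) of 1 cell type in 1 library of at least 20 such cells, and intervals on them cover counting error only. Cell types were clusters named from marker lists, so each name stands for cells like that type. The member genes were left out of the clustering. The labels do not say which libraries had been depleted of CD45+ cells, so the number of leukocytes in a library can be set by the sort.

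Unchallenged lung 6 and primary tumor 6, the shallowest of their groups, stood apart. In unchallenged lung 6, alveolar macrophages, ciliated, AT-2, club and B cells and fibroblasts all showed 179 to 243 CPM of Ccr2, against at most 46.6 CPM in those types in the other lungs. Of its 2379 fibroblasts, 71 remained when sub-clusters led by ciliated, neutrophil, alveolar macrophage, AT-2 or club cell markers were left out. In primary tumor 6, no C1q macrophage was found, and 513 of 2066 fibroblasts remained when sub-clusters led by MM or C1q macrophage markers were left out. The endothelium of lung metastasis 5 also carried MM markers, and 20 of its 1189 cells remained. In primary tumors 4, 5 and 6, 98 of 125, 83 of 118 and 226 of 256 endothelial cells lay in a sub-cluster with 5 of 6 C1q markers raised, though Meox2, Ptn and Ackr1 were among its leading genes, and 18 to 28 endothelial cells of each primary tumor remained without sub-clusters of this kind. Of 2917 classical monocytes in unchallenged lung 6, 182 lay in the sub-cluster led by their own markers and 1874 in one led by club cell markers. In lung metastases 5 and 6, 21 of 25 and 28 of 31 classical monocytes lay in a sub-cluster led by fibroblast markers. Of the C1q macrophages, 29 of 53, 42 of 62, 33 of 60 and 253 of 305 remained in unchallenged lungs 1, 4, 5 and 6, 136 of 159, 13 of 27, 21 of 36 and 41 of 78 in lung metastases 1-3, 4, 5 and 6, and 317 of 445 and 1318 of 2227 in primary tumors 1-3 and 4, most of the others lying in sub-clusters led by dendritic cell or fibroblast markers. Most main levels are given with and without these cells, and fits without them where stated. In fibroblasts, sub-clusters led by mesothelial or pericyte markers were not left out as led by another list. In lung metastases 5 and 6, 417 of 439 and 49 of 54 fibroblasts thus remained.

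Over all cells, Ccl2 had 14128 UMIs in 3828 cells, Ccl7 4585 in 1141, Ccl8 12198 in 1208 and Ccl12 4892 in 1132. Cx3cl1 had 3099 UMIs in 2487 cells. The receptors had 38774 UMIs of Ccr2 in 11570 cells and 28526 UMIs of Cx3cr1 in 11558 cells. The 7 genes divided by cell type into ligands of macrophages and fibroblasts, a ligand of endothelium, and receptors of monocytes and macrophages, as shown by type in the plot of all members.

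**Figure D1:**
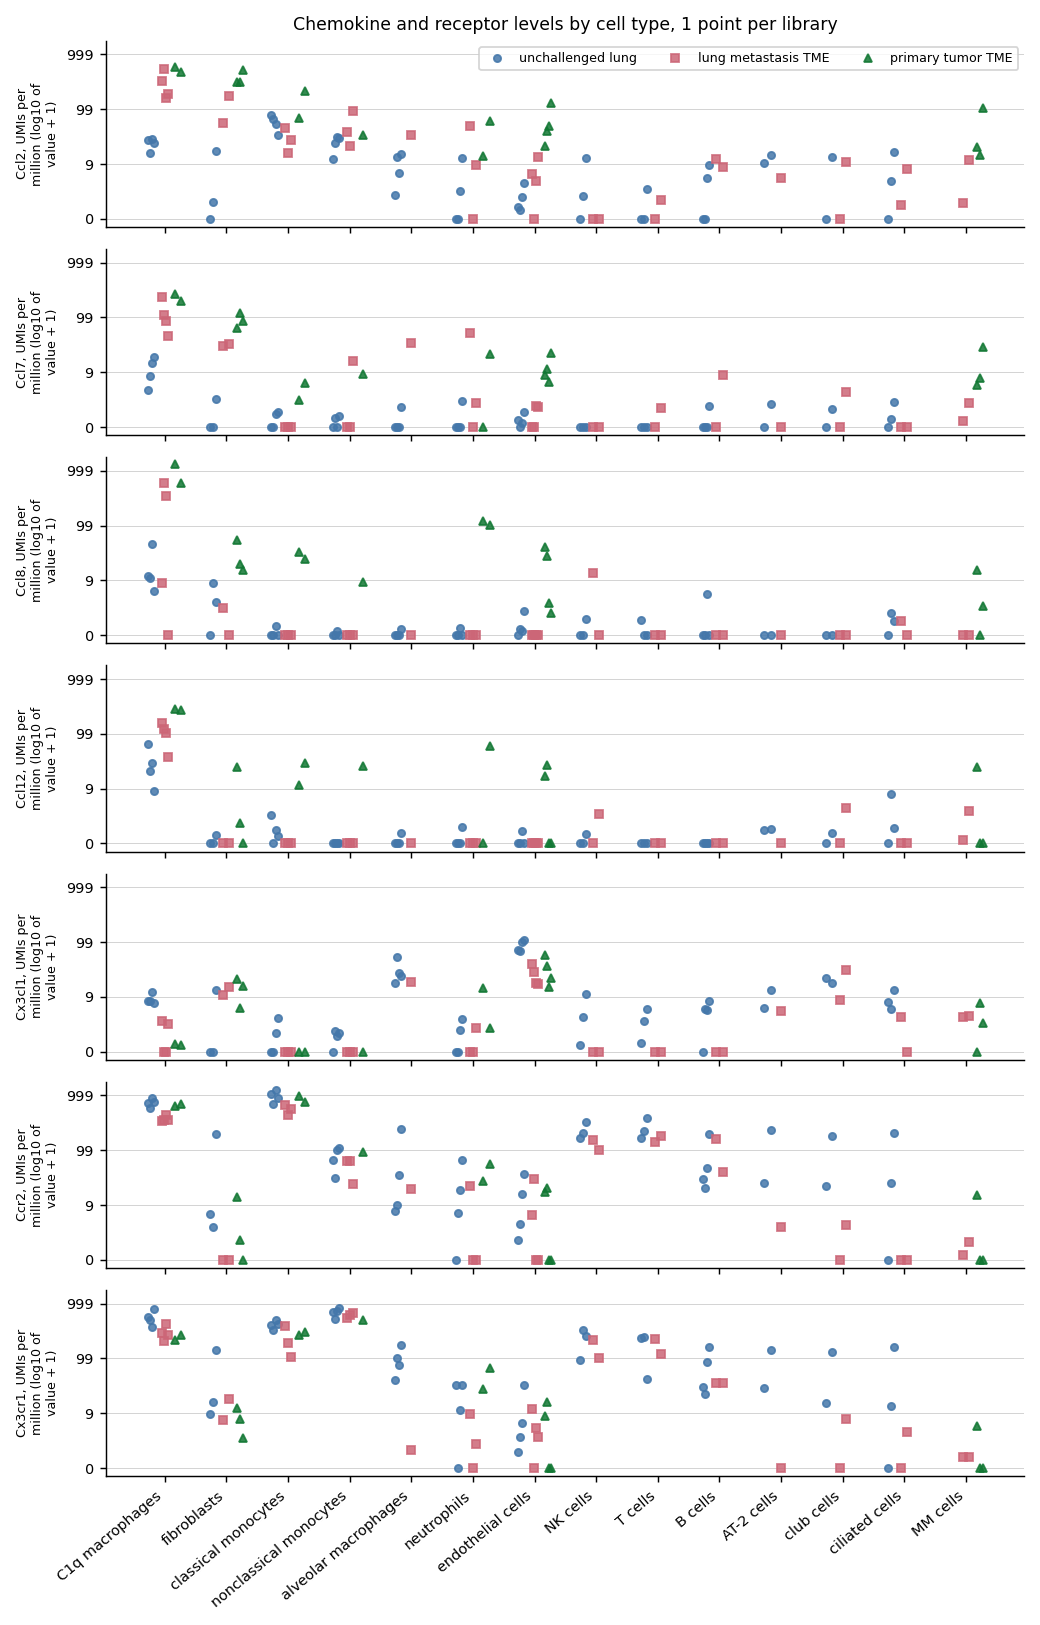
Level of each member (CPM, plotted as log10 of the value + 1) by cell type, 1 point per library of at least 20 cells, colored by tissue. Ccl2, Ccl7, Ccl8 and Ccl12 are highest in C1q macrophages, Ccr2 in classical monocytes, Cx3cr1 in nonclassical monocytes and Cx3cl1 in endothelial cells, by the mean over libraries with all cells of each class.

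Of the ligands, 4 lie in 1 block of 81229 bases on chromosome 11 (GRCm38, GENCODE vM21), all on the + strand: Ccl2 at chr11:82035571-82037453, Ccl7 at chr11:82045712-82047525, then Ccl11, Ccl12 at chr11:82101845-82103400 and Ccl8 at chr11:82115185-82116799. Ccr2 lies at chr9:124101950-124113557 (+), Cx3cr1 at chr9:119901616-120069879 (-) and Cx3cl1 at chr8:94772009-94782427 (+), and all 7 are protein-coding. No stretch of 31 bases was shared between transcripts of different members, the longest exact match being 23 bases between Ccl2 and Ccl7, so reads of neighboring chemokines could be told apart. The locus of Cx3cr1 overlaps 9 other genes, 3 of them on its strand, and the short gene Gm17268 lies over Ccl2 on the other strand.

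Ccl8 and Ccl12 are neighbors in that block and had the most similar levels of all member pairs. The 250 bases before their starts, from the RefSeq promoter table for GRCm38.p6 (+ strand, chr11:82114935-82115184 for Ccl8 and chr11:82101595-82101844 for Ccl12), are therefore shown. Capitals mark TATAAA and, on the other strand, GGAAGT, the core of PU.1 sites.
Ccl8: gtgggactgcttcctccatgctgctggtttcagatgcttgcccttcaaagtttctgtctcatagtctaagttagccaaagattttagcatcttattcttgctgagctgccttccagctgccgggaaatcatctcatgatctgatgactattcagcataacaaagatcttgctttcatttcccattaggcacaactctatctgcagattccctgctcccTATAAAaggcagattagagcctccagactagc
Ccl12: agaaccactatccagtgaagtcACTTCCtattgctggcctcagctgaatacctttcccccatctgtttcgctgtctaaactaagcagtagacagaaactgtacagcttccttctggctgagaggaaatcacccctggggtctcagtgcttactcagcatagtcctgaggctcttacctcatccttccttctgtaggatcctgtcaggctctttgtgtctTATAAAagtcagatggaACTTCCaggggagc
The box TATAAA began at base -32 of Ccl8 and base -31 of Ccl12 and occurs on either strand in 13.62% of 32851 promoter windows of 300 bases. GGAAGT occurred at bases -14 and -228 of Ccl12, not in the window of Ccl8, and in 23.77% of all windows. TGANTCA (in 7.808% of windows), the NF-kB consensus (8.459%) and TTCNNNGAA (8.298%) had no match on either strand in the windows of both genes. The longest run shared by both upstream sequences was 8 bases, and 5 of the 7 members had a window in that table.

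C1q macrophages, tissue macrophages marked by the complement genes C1qa, C1qb and C1qc, were the cells with the highest mean of Ccl2, Ccl7, Ccl8 and Ccl12. Ccl2, the main ligand of CCR2, was at 26.0, 14.8, 28.0 and 23.3 CPM in the C1q macrophages of unchallenged lungs 1, 4, 5 and 6. In lung metastases 1-3, 4, 5 and 6 it was at 319.8, 546, 158 and 191 CPM, and in primary tumors 1-3 and 4 at 593 and 482 CPM. All tumor libraries thus lay above all lungs, and the 2 tumor sites overlapped. The other 2 primary tumor libraries held 3 and 0 C1q macrophages and gave no level.

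Ccl7, a neighbor and close relative of Ccl2, followed the same order. It was at 3.72 to 17.8 CPM in the lungs, at 237, 108, 86.9 and 45.7 CPM in lung metastases 1-3, 4, 5 and 6, and at 263 and 198 CPM in primary tumors 1-3 and 4. Ccl12, a rodent CCR2 ligand, was at 63.2, 19.8, 28.0 and 8.21 CPM in the lungs, at 158, 124, 103 and 37.0 CPM in the metastases and at 281 and 275 CPM in the primary tumors. The 124 CPM of lung metastasis 4 came from 15 UMIs in 2 of 27 cells, and the 103 CPM of lung metastasis 5 from 19 UMIs in 7 of 36 cells. In each lung only 4 to 6 cells had a Ccl12 UMI. Lung metastasis 6 lay inside the range of the lungs for Ccl12.

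Ccl8, another chemokine gene of this block, varied widely between the metastases. It was at 11.2, 9.90, 44.7 and 5.48 CPM in the 4 lungs, and at 8.11, 588, 353 and 0 CPM in lung metastases 1-3, 4, 5 and 6. Both primary tumors, at 1338 and 594 CPM, were above every other library. Lung metastases 1-3 and 6 were therefore within or below the range of the lungs and the other 2 far above it. The levels of lung metastases 4 and 5 rested on very few cells, 71 UMIs in 1 of 27 cells and 65 UMIs in 3 of 36 cells, whereas 142 of 445 and 601 of 2227 cells of the primary tumors had a Ccl8 UMI. Cells of other types had Ccl8 UMIs too, neutrophils at up to 119.4 CPM in a library, and the source of the UMIs in single cells was not tested.

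With sub-clusters led by another list left out, the lungs moved most in lung 5, where Ccl8 was at 91.6 CPM, Ccl12 at 57.2 and Ccl7 at 28.6. Over the 4 lungs the levels then were 21.4 to 45.8 CPM for Ccl2, 5.83 to 28.6 for Ccl7, 6.84 to 91.6 for Ccl8 and 8.55 to 64.2 for Ccl12. Ccl2 was then at 344, 201 and 178 CPM in lung metastases 1-3, 5 and 6 and at 662 and 562 CPM in the primary tumors, and lung metastasis 4 had too few cells left. The tumor libraries stayed above the lungs for Ccl2 and Ccl7, and lung metastasis 6 stayed inside their range for Ccl12 (37.4 CPM).

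**Figure D2:**
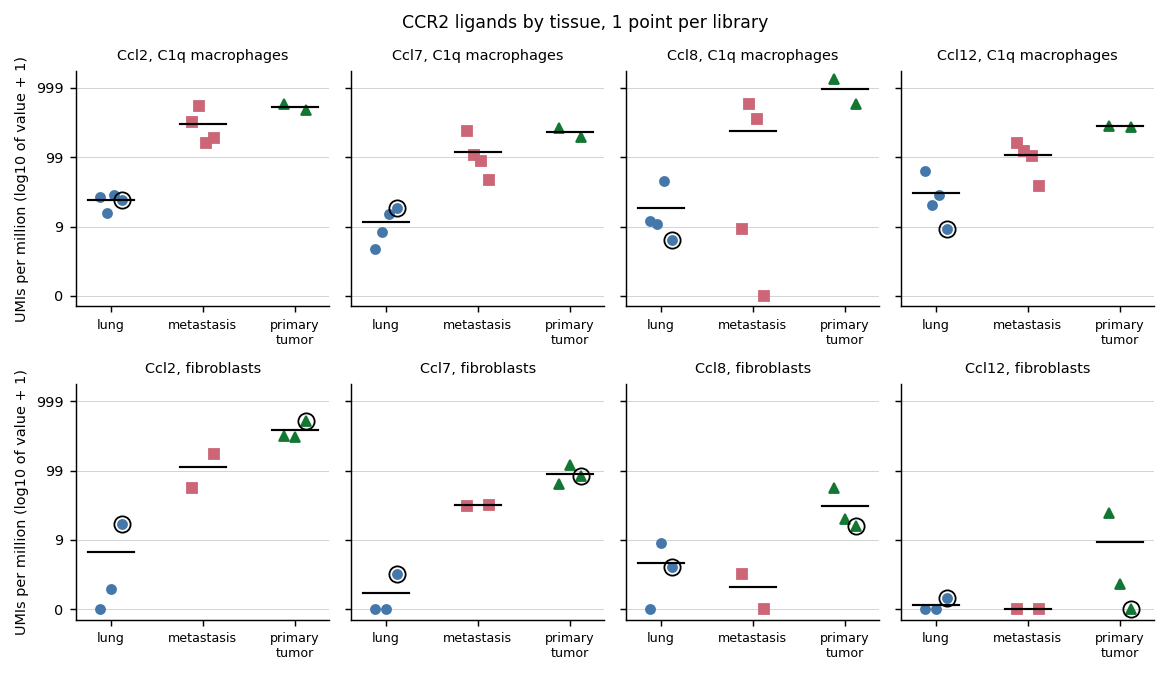
Level of Ccl2, Ccl7, Ccl8 and Ccl12 (CPM, plotted as log10 of the value + 1) in C1q macrophages and fibroblasts of the 3 tissues, 1 point per library, with a bar at the mean CPM and a black ring on unchallenged lung 6 and primary tumor 6. In both cell types the primary tumor libraries sit above all lungs for Ccl2 and Ccl7.

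In the fit of C1q macrophages, primary tumor TME was compared with unchallenged lung by edgeR's quasi-likelihood test with Benjamini-Hochberg adjustment over 7076 genes. Ccl2 was higher in primary tumors (537 ± 78.9 CPM, SD, n = 2) than in lungs (23.0 ± 5.78 CPM, n = 4), with a log2 fold change of 4.60 ± 0.41 (SE) and an adjusted p of 1.49e-05. Ccl7 rose by 4.31 ± 0.54 (adjusted p = 0.000219) and Ccl12 by 3.45 ± 0.53 (adjusted p = 0.00101) on the log2 scale. Ccl8 rose by 5.90 ± 1.23 (adjusted p = 0.00705), a call that was lost without primary tumor 1-3 (adjusted p = 0.0531). Of the 6 members tested, 4 were called, all higher, where 8.24% of all genes were called. Cx3cl1 was too low in these cells to be tested.

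For lung metastasis TME against lung, 4 of the 6 members were called, 3 ligands as higher and the receptor Ccr2 as lower, and 7.53% of all genes. Ccl2 was higher in metastases (304 ± 176 CPM, n = 4), with a log2 fold change of 3.69 ± 0.39 and an edgeR adjusted p of 7.31e-05, and Ccl7 by 3.46 ± 0.53 with an adjusted p of 0.000876. Ccl12 was higher by 2.04 ± 0.52 (adjusted p = 0.0242), which did not hold without unchallenged lung 4, 5 or 6 or without lung metastasis 1-3 (edgeR adjusted p = 0.0709, 0.0672, 0.0803 and 0.126). Ccl8 did not pass (3.57 ± 1.18, adjusted p = 0.0789), but did without lung metastasis 1-3 or 6 (edgeR adjusted p = 0.0239 and 0.0258).

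Between lung metastases and primary tumors no member was called in C1q macrophages, and 0% of all genes were called by edgeR (12 genes with the replicate number as a block). By unadjusted p, 4 members (Ccl2, Ccl8, Ccl12 and Ccr2) were under 0.05, among 371 of 7076 genes, and DESeq2 called 20 genes including 1 member, Ccr2. Mean levels were lower in metastases for Ccl2 (log2 difference -0.91 ± 0.36, edgeR adjusted p = 0.798), Ccl8 (-2.33 ± 1.05, adjusted p = 0.929) and Ccl12 (-1.40 ± 0.47, adjusted p = 0.601), with only 2 primary tumor libraries. Those were of runs 1 and 2, while lung metastases 5 and 6 were of run 3. The main fit did not include run.

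Other signals moved with some of these levels, and their part in the result was not tested. The summed level of 8 MM markers in C1q macrophages was 361 to 525 CPM in lungs, 894 to 4552 in metastases and 913 to 975 in primary tumors. The 10 genes of the dissociation list, which rise when tissue is digested, summed to 1705 to 4587 CPM in lungs, 2162 to 7939 in metastases and 3623 to 4373 in primary tumors, and these ranges overlap. Classical monocyte markers summed to 66.9 to 596 CPM in lungs, 451 to 1473 in metastases and 1019 to 1541 in primary tumors.

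The share of C1q macrophages with a Ccl2 UMI, after thinning each cell to 1000 UMIs, was 2.80% ± 1.02 (SD, n = 4) in lungs, 8.03% ± 5.50 (n = 4) in metastases and 20.2% ± 1.15 (n = 2) in primary tumors. Without thinning the means were 8.47%, 25.7% and 40.8%, at median depths of 1585 to 6996 UMIs per cell. In the same 2 primary tumor libraries the thinned shares of neutrophils, where Ccl2 was at most 59.8 CPM, were 3.03% and 5.49%, and these cells had median depths of 2196 to 2288 UMIs. Thinned shares of Ccl7 were 1.59% in lungs, 4.90% in metastases and 10.3% in primary tumors, and those of Ccl8 were 1.83%, 2.36% and 16.0%.

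The C1q macrophages were not uniform in which ligand they carried. Sub-clusters were made without the member genes, over classical monocytes, nonclassical monocytes and C1q macrophages together, and are named here by leading genes. Levels sum all cells of a sub-cluster, and C1q macrophages were the largest class in each of those named. The sub-clusters differed in each ligand, and these values carry no test because the clusters were made from the same cells. In primary tumors 1-3 and 4, Ccl8 was at 4583 and 1470 CPM in the Folr2 and Cd163 sub-cluster, at 29.0 and 57.0 CPM in the Arg1 and Cxcl3 sub-cluster, and at 174 and 180.0 CPM in the Tmem119 and Olfml3 sub-cluster. FOLR2 and CD163 are surface markers of perivascular and other resident macrophages, and ARG1 is the arginase of many tumor macrophages. The Arg1 and Cxcl3 sub-cluster was led by no marker list.

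Ccl2 was ordered otherwise, being highest in the Arg1 and Cxcl3 sub-cluster of primary tumors 1-3 and 4 (1016 and 999 CPM), lower in the Tmem119 and Olfml3 sub-cluster (408 and 421 CPM) and in the Folr2 and Cd163 sub-cluster (295 and 458 CPM). Ccl12 was highest in the Tmem119 and Olfml3 sub-cluster, at 529 and 592 CPM, against 357 and 207 CPM in Folr2 and Cd163 cells and 168 and 243 CPM in Arg1 and Cxcl3 cells. A further sub-cluster, led by the cell cycle genes Top2a and Prc1, had as much Ccl12 in primary tumor 1-3 (525 CPM) but not in primary tumor 4 (175 CPM). Ccl7 was at 355 and 289 CPM in Folr2 and Cd163 cells, at 306 and 280.2 CPM in Arg1 and Cxcl3 cells and lower, at 100.4 and 148 CPM, in Tmem119 and Olfml3 cells. Among these 3 kinds each thus led for another ligand in both libraries.

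The receptors divided the same sub-clusters. Ccr2 was at 826 and 1122 CPM in Folr2 and Cd163 cells of primary tumors 1-3 and 4 and at 164 and 259 CPM in Tmem119 and Olfml3 cells, while Cx3cr1 was at 192 and 129 CPM in the former and 378 and 673 CPM in the latter. The sub-cluster that came mainly from unchallenged lungs, led by Cxcl13 and H2-M2, held all 4 CCL genes low, with Ccl2 at 22.5 to 50.8 CPM in the 4 lungs. Its Cx3cr1, at 651 to 1036 CPM, was above the 198 and 199 CPM of the Arg1 and Cxcl3 cells of both primary tumors. In lung metastasis 1-3, Arg1 and Cxcl3 cells had 847 CPM of Ccl2, 671 of Ccl7 and no Ccl8 UMI in 52 cells. In the 27 such cells of lung metastasis 6 the levels were far lower, at 145 CPM of Ccl2 and 13.2 of Ccl7, and also without a Ccl8 UMI.

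**Figure D3:**
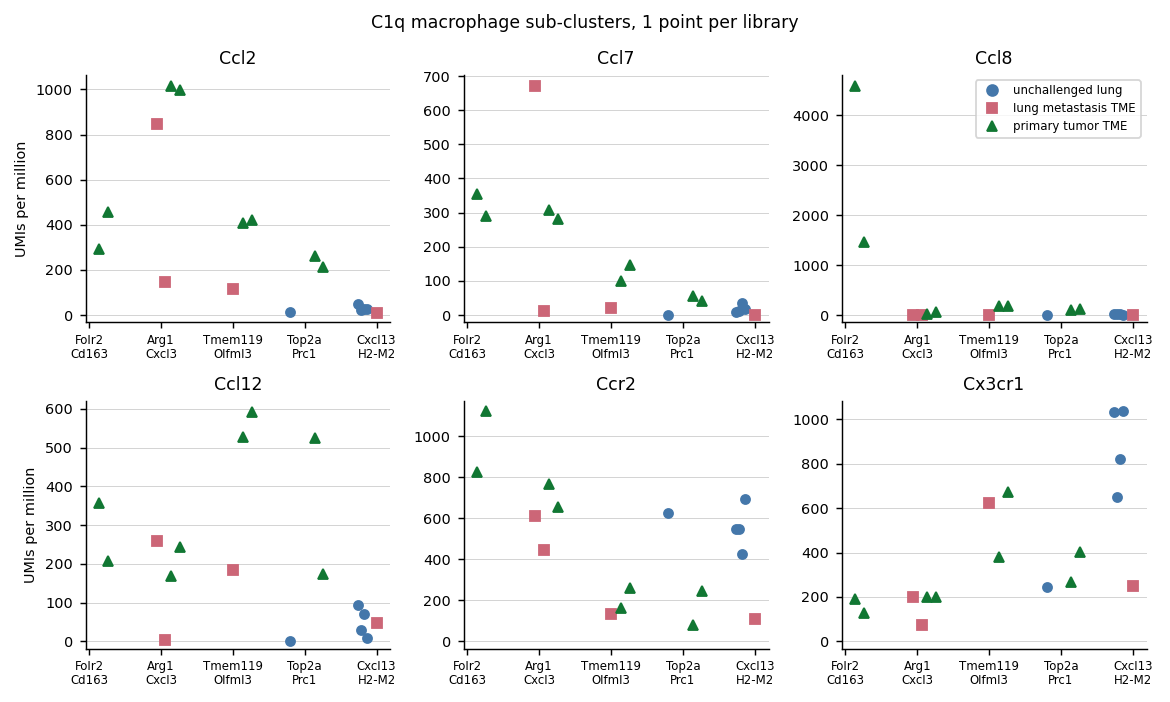
Levels of 6 members (CPM, linear axes that differ between panels) in 5 sub-clusters of monocytes and macrophages named by leading genes, colored by tissue. There is 1 point per library with at least 20 cells of the sub-cluster. C1q macrophages were the largest class in each, and a point can include monocytes. Ccl8 and Ccr2 are highest in the Folr2 and Cd163 cells, Ccl2 in the Arg1 and Cxcl3 cells of primary tumors, and Ccl12 in the Tmem119 and Olfml3 cells of primary tumor 4.

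Ccl2 was also set against the other ligands in single cells. Among C1q macrophages of primary tumor 4 thinned to 1000 UMIs, Ccl2 was found in 52.5% of 181 cells with Ccl7 (exact 95% interval 45.0 to 59.9%) and in 18.2% of 1998 cells without it (16.5 to 19.9%). In primary tumor 1-3 the shares were 54.7% of 53 cells and 14.5% of 380 cells. For Ccl12 they were 41.4% of 273 cells with it and 18.1% of 1906 without it in primary tumor 4, and 38.1% and 16.2% in primary tumor 1-3. For Ccl8 the shares lay close together in primary tumor 4. Ccl2 was found in 21.7% of 290 cells with Ccl8 and 20.9% of 1889 cells without it. At the same thinning, Ccl8 was found in 13.31% of C1q macrophages and 10.2% of neutrophils of primary tumor 4. In primary tumor 1-3 it was found in 18.71% and 18.18%. Whether the Ccl8 UMIs were the macrophages' own was not tested, so the close shares cannot decide whether Ccl2 and Ccl8 go together. Cx3cr1 was found in 13.5% of the cells with Ccl8 and 20.2% of those without it in primary tumor 4, and in 8.64% and 20.2% in primary tumor 1-3. In the fibroblasts of primary tumor 6 the shares of Ccl2 were close, at 37.7% of 106 cells with Ccl7 and 33.7% of 1426 without it. Cells of 1 library are not replicates, and these shares carry no test.

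Fibroblasts, a class that in the tumors includes CAFs, had the next highest mean of Ccl2. In lung metastasis 5, 64 and 86 of its cells lay in sub-clusters led by alveolar and peribronchial fibroblast markers. The paper attributes such cells in its metastasis samples to adjacent tissue outside the tumor. Ccl2 was at 0, 0.992 and 16.0 CPM in unchallenged lungs 4, 5 and 6, where the 0 has a limit of 8.76 CPM at 3 UMIs, at 55.0 and 171 CPM in lung metastases 5 and 6, and at 314, 307 and 517 CPM in primary tumors 4, 5 and 6. The 3 groups did not overlap. Ccl7 was at 0, 0 and 2.22 CPM in the lungs, 29.7 and 31.4 CPM in the metastases and 63.6, 121 and 83.7 CPM in the primary tumors, again without overlap. A sub-cluster led by mesothelial markers held 210 of 439 and 31 of 54 fibroblasts of lung metastases 5 and 6. Its leading genes included Wt1, Lgals7 and Calca, which the paper lists in its signature of metastasis CAFs. Without this sub-cluster Ccl2 was at 71.0 and 61.7 CPM in these metastases, still between the other tissues, and Ccl7 at 49.9 and 12.3 CPM. Ccl8 was at 54.7, 18.9 and 14.7 CPM in primary tumors 4, 5 and 6 and at most 7.94 CPM elsewhere. With sub-clusters led by another list left out, lung 6 had 23.1 CPM of Ccl8 in its 71 cells, and primary tumors 5 and 6, at 20.5 and 11.7 CPM, did not lie above it. Ccl12 was at 23.8 CPM in primary tumor 4 and at most 1.35 CPM in the other libraries. In primary tumor 4, where most cells were C1q macrophages, cells of other types carried both genes too. Its neutrophils had 102.5 CPM of Ccl8 and 59.8 of Ccl12, and its endothelial cells 26.8 and 25.5 CPM, so that the fibroblasts did not stand above its neutrophils for either gene.

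The fit of fibroblasts held 8 libraries and 11170 genes. For primary tumor TME against lung, Ccl2 (379 ± 119 against 5.67 ± 8.97 CPM, SD, n = 3 and 3) rose by 5.60 ± 0.88 on the log2 scale (edgeR adjusted p = 0.00587) and Ccl7 by 5.91 ± 0.61 (adjusted p = 0.00181). Ccl8 rose by 2.87 ± 0.80 (adjusted p = 0.0471). Of 6 members tested 3 were called, all higher, and 11.9% of all genes. The calls of Ccl2 and Ccl7 held in every fit without 1 library, but without unchallenged lung 6 the changes were 8.90 and 10.06, fitted against lungs with at most 0.992 CPM, and they depend on the prior count there. In the other 7 fits they were 5.16 to 5.72 and 5.57 to 6.11. The call of Ccl8 was lost without any 1 of 7 of the 8 libraries (edgeR adjusted p = 0.0678 to 0.179), unchallenged lung 5 being the exception, when sub-clusters led by another list were left out (adjusted p = 0.201) and with the replicate number as a block (2.48, adjusted p = 0.0541). Cx3cl1 (log2 difference 1.27, edgeR adjusted p = 0.412) was called without unchallenged lung 6 (7.39, adjusted p = 0.0168), and Cx3cr1 (-3.22, adjusted p = 0.0738) without unchallenged lung 4 or 5 (edgeR adjusted p = 0.0407 and 0.0415). The change of Cx3cr1 ranged from -3.93 to -0.963 over the fits without 1 library. Lung 6 fibroblasts had 144.8 CPM of Cx3cr1, against 8.76 and 14.9 CPM in lungs 4 and 5.

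For lung metastasis TME against lung, 1 of 6 members was called, where 1.08% of all genes were. Ccl7 rose by 4.36 ± 0.65 (30.5 ± 1.18 against 0.741 ± 1.28 CPM, n = 2 and 3, edgeR adjusted p = 0.0295), but not without unchallenged lung 4 or lung metastasis 5 or 6 (adjusted p = 0.0554, 0.206 and 0.0965), nor without a sub-cluster led by mesothelial markers (adjusted p = 0.0702). Ccl2 had a log2 difference of 3.73 ± 0.88 that did not pass (edgeR adjusted p = 0.0815). It passed without unchallenged lung 6 (7.03, edgeR adjusted p = 0.0159) and with the replicate number as a block (3.99, adjusted p = 0.0454). Ccl2 also passed without sub-clusters led by another list (7.16, edgeR adjusted p = 0.00213), in a fit that kept the cells led by mesothelial markers.

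For lung metastasis TME against primary tumor TME, none of 6 members was called and 1.07% of all genes were. Lung metastases 5 and 6 were both of run 3 and primary tumor 4 of run 2, and the main fit did not include run. By unadjusted edgeR p, 2 members were under 0.05, Ccl7 and Ccl8, among 1142 of 11170 genes, and DESeq2 called 318 genes including 1 member, Ccl8. The log2 differences were -1.86 ± 0.85 for Ccl2 (edgeR adjusted p = 0.508), -1.56 ± 0.52 for Ccl7 (adjusted p = 0.271) and -3.97 ± 1.10 for Ccl8 (adjusted p = 0.156). Without sub-clusters led by another list, Ccl7 (-1.65, edgeR adjusted p = 0.0361) and Ccl8 (-4.71, adjusted p = 0.0441) were called as lower in metastases. That fit kept the cells led by mesothelial markers.

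The fibroblasts of the 3 tissues were spread differently over 3 clusters. A cluster led by Inmt, Ogn and Clec3b held 99.35% of lung fibroblasts, 38.63% of those of metastases and 0.04143% of those of primary tumors, while a cluster led by Ccl11, Apod and Lum held 67.23% of the primary tumor cells and a cluster led by Meg3, Col1a1 and Rgs5 held 56.67% of the metastasis and 32.73% of the primary tumor cells. C1q markers summed to 906 to 2159 CPM in lung fibroblasts, 718 to 1715 in those of metastases and 162 to 1251 in those of primary tumors, and these ranges overlap. MM markers summed to 238 to 652, 1704 to 6071 and 1606 to 6181 CPM, and the dissociation list to 1928 to 3544, 1095 to 2607 and 1532 to 1716 CPM. The part of these lists in the result was not tested.

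Among fibroblast sub-clusters of primary tumors, Ccl2 was highest in the small one led by C1q macrophage markers, at 415 and 924.5 CPM in 29 and 32 cells of primary tumors 4 and 6, and at 470.5 CPM in the one led by MM markers, which held 1521 cells of primary tumor 6. It was at 370.3, 612 and 609.7 CPM in the sub-cluster with markers of parenchymal fibroblasts in primary tumors 4, 5 and 6 and at 143 and 296 CPM in cells led by Lrrc15 in primary tumors 5 and 6. Pericytes, the mural cells of small vessels, had 192 CPM in lung metastasis 5 and 146 and 170.2 CPM in primary tumors 4 and 6. Alveolar fibroblasts had no Ccl2 UMI in 25, 32 and 24 cells of unchallenged lungs 4, 5 and 6 and none in 64 cells of lung metastasis 5, while the few cells of this kind in other libraries held 7 UMIs. Peribronchial fibroblasts of that metastasis also had none. The cells led by mesothelial markers had 43.5 and 214 CPM in lung metastases 5 and 6.

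Inside a library, macrophages were compared with fibroblasts by a two-sided exact sign-flip permutation test of the log2 ratio (pseudocount of 1 CPM), with p adjusted over the 7 pairs planned. Ccl2 was lower in fibroblasts than in C1q macrophages in 6 of 6 libraries, by a mean log2 ratio of -1.77 (SD 1.72, exact p = 0.0312, adjusted p = 0.0365), and Ccl7 in 6 of 6 by -2.20 (SD 1.22, same exact p). This p is the smallest that 6 libraries allow. Ccl12 was higher in macrophages in 6 of 6 libraries by 4.56 (SD 1.41, exact p = 0.0312). Ccl8 was higher in 5 of 6 and at 0 in both types in lung metastasis 6, with a mean of 2.78 (SD 2.42, exact p = 0.0625). For Ccl2 the ratio was close to 0 in lung metastasis 6 (-0.16), unchallenged lung 6 (-0.51) and primary tumor 4 (-0.61). With sub-clusters led by another list left out, lung 6 fibroblasts had no Ccl2 UMI, its ratio was the lowest of the 6 (-4.74), and the mean was -2.77 for Ccl2 and -2.79 for Ccl7 (both exact p = 0.0312, adjusted p = 0.0437). Ccl8 was then higher in macrophages in 4 of 6 libraries and turned in lung 6 (-1.62, mean 2.84, exact p = 0.125). With 5 libraries, after leaving out any 1, no ligand pair could reach an adjusted p under 0.05.

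The cells that held most of the Ccl2 UMIs of a tumor differed between libraries. In primary tumors 1-3 and 4, where C1q macrophages were 66.62% and 71.31% of cells, they held 97.52% and 91.58% of Ccl2, 99.17% and 96.14% of Ccl7, 98.54% and 97.37% of Ccl8 and 98.33% and 96.04% of Ccl12. In primary tumors 5 and 6 fibroblasts held 83.82% and 92.38% of Ccl2, being 45.21% and 86.7% of cells. In lung metastasis 5, fibroblasts held 60.61% of Ccl2 and the 36 C1q macrophages, 0.6969% of cells, held 17.58% of Ccl2 and 92.86% of Ccl8, the latter in 3 cells. In unchallenged lungs 1, 4, 5 and 6 classical monocytes held 56.67%, 66.84%, 48.3% and 20.96% of Ccl2, and in lung 6 ciliated cells held 25.85% and alveolar macrophages 20.16%. The sort can set these shares.

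Monocytes, the cells that these ligands draw, carried Ccl2 too. Ccl2 in classical monocytes was at 78.9, 64.9, 52.0 and 32.9 CPM in the lungs, above the C1q macrophages of the same lungs, at 45.1, 14.9 and 26.8 CPM in lung metastases 1-3, 5 and 6 and at 67.9 and 214 CPM in primary tumors 1-3 and 4. The order of Ccl2 between these 2 types was thus turned in lung metastases 1-3, 5 and 6 and in both primary tumors, without a test of that difference. The dissociation list summed to 6154 to 10230 CPM in classical monocytes of lungs and 1705 to 4587 CPM in C1q macrophages of lungs, and its part was not tested. Without sub-clusters led by another list, classical monocytes had 90.0, 55.4, 59.4 and 43.0 CPM of Ccl2 in the lungs, 59.3 CPM in 20 cells of lung metastasis 1-3 and 64.5 and 228 CPM in the primary tumors, and lung metastases 5 and 6 had too few cells left. Sorted tumor cells had almost no Ccl2, as the 4 sorted MM libraries had 0.0166 to 0.980 CPM of Ccl2 and at most 1.47 CPM of Ccl7. Cells classed as MM in 5 TME libraries had 0.938 to 104.4 CPM of Ccl2 and 0.296 to 28.5 CPM of Ccl7. They also had up to 14.3 CPM of Ccl8 and 23.9 CPM of Ccl12. Whether these UMIs were those of the tumor cells was not tested. In the fit of sorted MM cells 0% of 14430 genes were called by edgeR, with 455 at an unadjusted p under 0.05, 15 by DESeq2 and 42 with the replicate number as a block. None of the 4 members tested (Ccl8, Ccr2, Cx3cl1 and Cx3cr1) was called by edgeR or DESeq2, and 1 (Ccr2, from 17 and 2 UMIs) had an unadjusted p under 0.05.

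Endothelium of primary tumors also carried Ccl2. It was at 0.670, 0.438, 1.53 and 3.48 CPM in lungs 1, 4, 5 and 6, at 5.47, 0, 3.81 and 12.2 CPM in lung metastases 1-3, 4, 5 and 6 and at 20.0, 38.3, 48.1 and 127 CPM in primary tumors 1-3, 4, 5 and 6. The primary tumors lay above all other libraries. Other cell types reached like levels of Ccl2, neutrophils 0 to 59.8 CPM over 9 libraries and MM cells 0.938 to 104.4 CPM in 5 TME libraries. Whether the Ccl2 UMIs of endothelial cells were their own was not tested. Ccl2 rose by 5.84 ± 0.68 on the log2 scale in primary tumors against lungs (edgeR adjusted p = 2.24e-05) and was lower by -3.67 ± 0.68 in metastases than in primary tumors (adjusted p = 0.0027). The latter call was lost without sub-clusters led by another list (-3.58, adjusted p = 0.124) and at a finer clustering (-1.42, adjusted p = 0.618). With those sub-clusters left out, 2 primary tumors kept 20 cells or more, at 112 and 104 CPM in primary tumors 5 and 6, against 0 CPM in 55 and 117 cells of lung metastases 1-3 and 4, 45.6 and 18.2 CPM in 20 and 32 cells of lung metastases 5 and 6 and 0.439 to 3.19 CPM in the lungs. Of the 28 cells left in primary tumor 5, 22 lay in the sub-cluster led by lymphatic markers, at 139.7 CPM of Ccl2. The value of that library is thus mostly one of lymphatic cells. The cells of the sub-cluster with raised C1q markers had 34.1, 29.1 and 131 CPM in primary tumors 4, 5 and 6.

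Beside it, C1q markers in endothelium summed to 56.3 to 193 CPM in lungs, 226 to 455 in metastases and 297 to 1338 in primary tumors, and fibroblast markers to 49.8 to 524, 93.0 to 1055 and 747 to 2426 CPM, and their part in the result was not tested. Lymphatic endothelial cells, 54 of whose 77 cells came from primary tumors, had 41 Ccl2 UMIs, 96.6 CPM. They are part of the endothelium given above.

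The receptors were carried by monocytes and C1q macrophages. Ccr2 was highest in classical monocytes, at 1069, 707, 1268 and 882 CPM in lungs 1, 4, 5 and 6, at 661, 433 and 562 CPM in lung metastases 1-3, 5 and 6 and at 976 and 752 CPM in primary tumors 1-3 and 4. C1q macrophages followed, with 736, 589, 884 and 765 CPM in lungs, 335, 356, 440.0 and 352 CPM in metastases and 641 and 693 CPM in primary tumors. Metastases were below both other tissues in C1q macrophages. Without sub-clusters led by another list, these macrophages had 521 to 761 CPM in lungs and 314 to 402 CPM in lung metastases 1-3, 5 and 6. In primary tumors 1-3 and 4 they then had 641 and 729 CPM. In classical monocytes without sub-clusters led by another list, Ccr2 was at 1147, 762, 1490.0 and 1644 CPM in the lungs, at 884 CPM in 20 cells of lung metastasis 1-3 and at 976 and 749.9 CPM in the primary tumors. The tissues then overlapped. T cells (140 to 392 CPM) and NK cells (99.0 to 326 CPM) came next and overlapped each other, and nonclassical monocytes had 22.8 to 107 CPM. Inside a library, classical monocytes were above C1q macrophages in 8 of 9 libraries, by a mean log2 ratio of 0.43 (SD 0.31, exact sign-flip p = 0.00781, adjusted over 7 pairs 0.0273), which falls to an adjusted p of 0.0547 without unchallenged lung 4, 5 or 6, lung metastasis 6 or primary tumor 4. With sub-clusters led by another list left out it was 0.83 in 7 of 7 libraries (exact sign-flip p = 0.0156, adjusted p = 0.0437). Both tests flipped lung metastasis 1-3 and primary tumor 1-3, which shared some of their mice, as separate libraries.

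In the fit of C1q macrophages, Ccr2 was lower in lung metastases (371 ± 47.0 CPM, n = 4) than in lungs (743 ± 121 CPM, n = 4), with a log2 change of -1.01 ± 0.23 and an edgeR adjusted p of 0.0142. The call was lost without unchallenged lung 5 or lung metastasis 6 (edgeR adjusted p = 0.0653 and 0.0568). Primary tumors did not differ from lungs beyond their spread (-0.12 ± 0.28, adjusted p = 0.825). Against primary tumors the metastases were lower by -0.89 ± 0.27, called by DESeq2 (adjusted p = 0.0138) but not by edgeR (adjusted p = 0.433).

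After thinning to 1000 UMIs, 45.0% ± 8.38 of classical monocytes in lungs had a Ccr2 UMI (n = 4, 66.8% without thinning, median depths 1385 to 9808 UMIs). Endothelial cells, which should lack the gene, had 0.257, 0.461, 2.12 and 4.87% in lungs 1, 4, 5 and 6, at median depths of 1579 to 4401 UMIs. In unchallenged lung 6, however, cells of 6 other types had Ccr2 in 16.2 to 19.0% and their ratio of Ccr2 to Cx3cr1 UMIs was 1.22 to 1.67, between the 2.05 of its classical and the 0.128 of its nonclassical monocytes. The source of the UMIs in those cells was not tested.

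**Figure D4:**
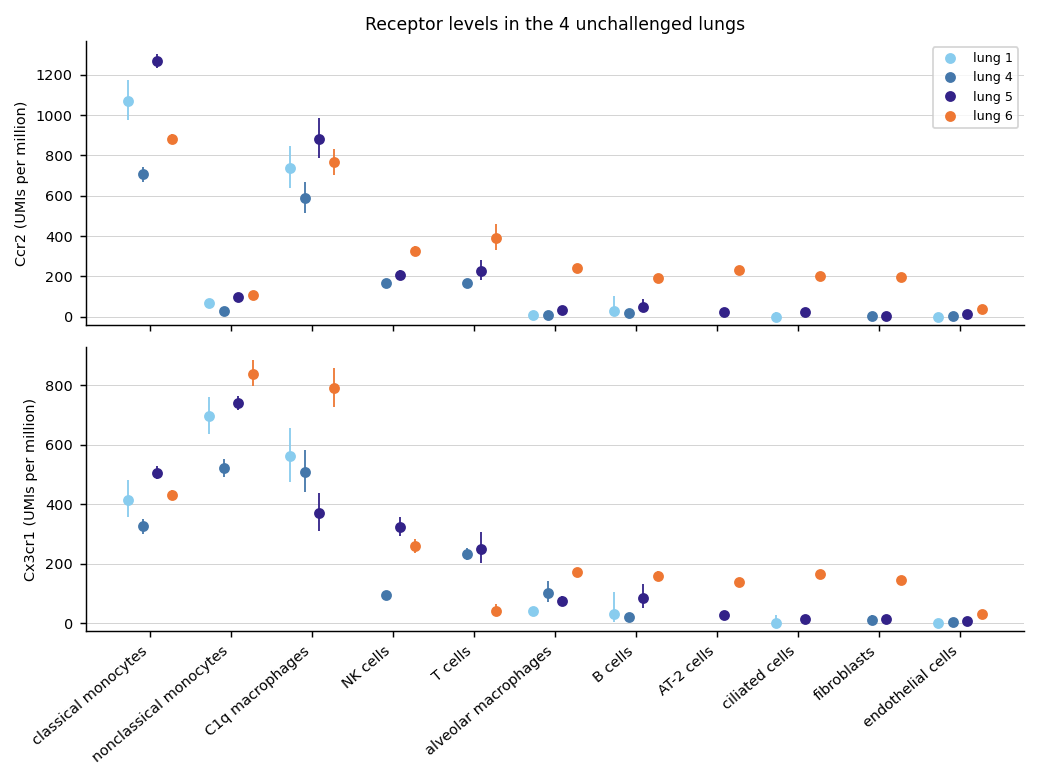
Levels of Ccr2 and Cx3cr1 (CPM) in the cell types of the 4 unchallenged lungs, with exact 95% Poisson intervals that cover counting error only. Classical monocytes lead for Ccr2 and nonclassical monocytes for Cx3cr1 in all 4 lungs over all cells of each class (for Cx3cr1 in lung 5 alone, ahead of C1q macrophages, when sub-clusters led by another list are left out), and among epithelial cells only those of lung 6 show 179 or more of Ccr2.

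Over all cells of each class, Cx3cr1 was highest in nonclassical monocytes, at 696, 521, 742 and 840.1 CPM in lungs 1, 4, 5 and 6, at 541, 624 and 675 CPM in lung metastases 1-3, 4 and 6 and at 506 CPM in primary tumor 4. The tissues overlapped. Classical monocytes had 415, 326, 506 and 432 CPM in lungs, 387, 194 and 107 CPM in metastases 1-3, 5 and 6 and 269 and 302 CPM in primary tumors. Without sub-clusters led by another list they had 456, 337, 523 and 571 CPM in lungs, 297 CPM in lung metastasis 1-3 and 267 and 316.5 CPM in primary tumors. Nonclassical were above classical monocytes in 7 of 7 libraries, by a mean log2 ratio of 0.97 (SD 0.75, exact sign-flip p = 0.0156, adjusted 0.0365), the smallest p that 7 libraries allow. Without unchallenged lung 4, 5 or 6, lung metastasis 6 or primary tumor 4 the adjusted p was 0.0625 to 0.0729, and without sub-clusters led by another list the mean was 0.64 in 5 of 5 libraries (exact p = 0.0625, the smallest for 5 libraries, adjusted 0.0729).

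C1q macrophages had 561, 507, 369 and 790.0 CPM of Cx3cr1 in lungs, 292, 207, 424 and 268 CPM in metastases and 212 and 270.4 CPM in primary tumors. Lung metastasis 5 alone reached into the range of the lungs, which began at lung 5. Without sub-clusters led by another list the lungs were at 653 to 966 CPM, the metastases at 247 to 509.7 and the primary tumors at 226 and 296 CPM, and lungs and tumors did not overlap. The order of the cell types turned with them, as C1q macrophages of lungs 1, 4, 5 and 6 then had 875, 653, 664 and 966 CPM and nonclassical monocytes 692, 520.0, 743 and 880.0 CPM, so that macrophages were above nonclassical monocytes in 3 of 4 lungs. The log2 difference was -0.89 ± 0.29 for metastases (edgeR adjusted p = 0.0742) and -1.17 ± 0.36 for primary tumors (adjusted p = 0.0547), so that neither passed. Both passed when sub-clusters led by another list were left out (-1.12, adjusted p = 0.0276, and -1.54, adjusted p = 0.00988) and by DESeq2 (adjusted p = 0.0235 and 0.00647). Without lung metastasis 5 the edgeR adjusted p was 0.0377 for metastases and 0.0384 for primary tumors, and without lung metastasis 4 it was 0.0266 for primary tumors.

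T cells carried Cx3cr1 at 232 and 250.3 CPM in lungs 4 and 5, but at 40.4 CPM in lung 6, and NK cells at 94.0, 324 and 259 CPM in those 3 lungs. The 40.4 CPM of T cells in lung 6 lay below the 128 to 173 CPM of its epithelial cells, B cells and alveolar macrophages. Neutrophils had at most 66.6 CPM of Cx3cr1 and 64.6 CPM of Ccr2, and both receptors were at most 1.54 CPM in sorted MM cells.

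Cx3cl1 was a gene of lung capillaries. Aerocytes, the large capillary cells of gas exchange marked by Car4 and Ednrb, had 133, 151, 190.0 and 230.4 CPM in lungs 1, 4, 5 and 6. The cells grouped with them had 60.7 and 118 CPM in lung metastases 5 and 6, but 174 of 191 and 20 of 24 of these lay in a sub-cluster led by MM markers, and they are not compared with the lung cells. General capillary cells, the stem-like capillary cells marked by Gpihbp1, had 44.1, 53.1, 62.9 and 36.3 CPM in lungs and 45.8, 33.1, 16.7 and 7.45 CPM in lung metastases 1-3, 4, 5 and 6. Of the general capillary cells of lung metastases 5 and 6, 0 of 439 and 1 of 93 lay outside sub-clusters led by another list. Vwf-high endothelial cells, which include veins, had 32.0, 28.3, 45.0 and 34.4 CPM in lungs, 0, 6.47 and 2.54 CPM in lung metastases 4, 5 and 6 and 50.6, 35.8, 14.1 and 21.2 CPM in primary tumors 1-3, 4, 5 and 6. In each lung the aerocytes were above both other kinds, and Vwf-high cells of lung metastases 5 and 6 lay below those of all lungs. The 0 of lung metastasis 4 came from 23 cells and has a limit of 29.1 CPM at 3 UMIs, which reaches the lungs. In Vwf-high cells outside such sub-clusters Cx3cl1 was at 28.3 to 44.6 CPM in lungs, at 15.2 and 7.27 CPM in 20 and 27 cells of lung metastases 5 and 6 and 11.2 and 32.1 CPM in 28 and 20 cells of primary tumors 5 and 6. In primary tumor 5, 22 of these 28 cells lay in the sub-cluster led by lymphatic markers and had no Cx3cl1 UMI.

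**Figure D5:**
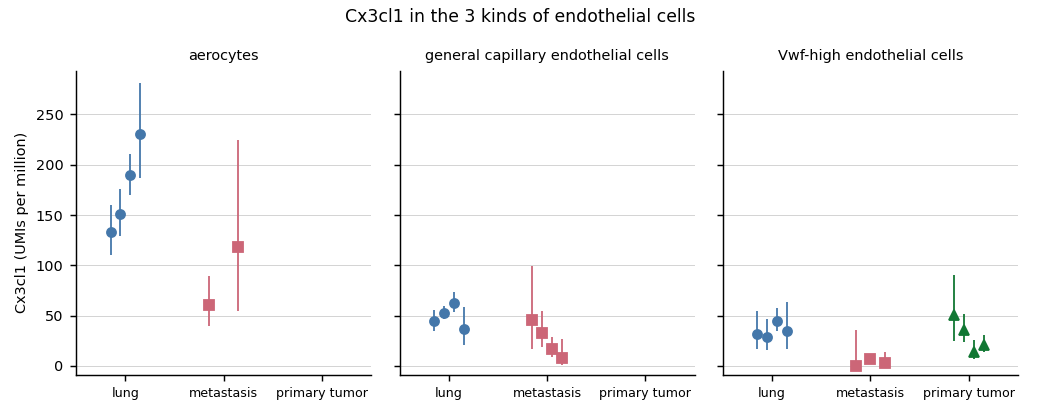
Level of Cx3cl1 (CPM) in 3 kinds of endothelial cells by tissue, 1 point per library of at least 20 cells with its exact 95% Poisson interval. Aerocytes of the 4 lungs lie between 133 and 230.4, above the general capillary and Vwf-high cells of all libraries, and most cells behind the metastasis points of aerocytes lay in a sub-cluster led by MM markers.

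Over all endothelial cells Cx3cl1 fell by 1.92 ± 0.35 on the log2 scale in lung metastases (24.7 ± 10.4 CPM) against lungs (85.3 ± 20.0 CPM, n = 4 and 4, edgeR adjusted p = 0.00549) and by 1.46 ± 0.33 in primary tumors (31.8 ± 18.5 CPM, n = 4, adjusted p = 0.00421). Metastases and primary tumors did not differ beyond their spread (-0.46 ± 0.39, adjusted p = 0.549). In endothelium 3 members could be tested, Ccl2, Ccr2 and Cx3cl1. Of these 1 was called in metastases against lungs, where 3.46% of 9627 genes were, 2 in primary tumors against lungs (28.1% of genes) and 1 in metastases against primary tumors (11.8% of genes).

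The makeup of the endothelium moved with these values. Aerocytes were 21.4% of lung and 0.3636% of primary tumor endothelial cells, and Vwf-high cells were 16.11% of lung, 42.16% of metastasis and 98.36% of primary tumor endothelial cells. These shares do not show that tumor endothelium was venous. The sub-cluster led by venous markers held 651 lung, 33 metastasis and 2 primary tumor cells. Of the Vwf-high cells of lung metastases 5 and 6, 20 of 559 and 27 of 92 lay outside sub-clusters led by another list. MM markers summed to 12.8 to 44.4 CPM in lung endothelium, 544 to 9226 in metastases and 455 to 2239 in primary tumors, and their part was not tested. Without sub-clusters led by another list the call against lungs was lost for metastases (-1.64, edgeR adjusted p = 0.0914), and without the shallow unchallenged lung 6 and primary tumor 6 it was lost for primary tumors (-1.16, adjusted p = 0.058).

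Endothelium was above fibroblasts for Cx3cl1 in 8 of 8 libraries, by a mean log2 ratio of 2.40 (SD 2.59, exact sign-flip p = 0.00781, adjusted over 7 pairs 0.0273). The exact p is the smallest for 8 libraries. The test flipped each library alone, though by name lung metastases and primary tumors 5 and 6 came from the same mice. Without unchallenged lung 4, 5 or 6, lung metastasis 6 or primary tumor 4 the adjusted sign-flip p was 0.0547. The ratios were 3.02 to 6.64 in 3 lungs and 0.21 to 1.25 in the tumors. Endothelium held 89.61%, 91.98% and 86.03% of Cx3cl1 UMIs in lungs 1, 4 and 5, but 14.86% in lung 6, where alveolar macrophages held 35.08% and ciliated cells 22.53%. The share of aerocytes with a UMI at 1000 UMIs was 13.2% ± 2.52 in lungs (40.4% without thinning, median depths 1582 to 7110 UMIs), against none of 73 and 168 fibroblasts in lungs 4 and 5 and 1.48% of 2162 in lung 6, where their level was 12.2 CPM (median depths 3905, 6001 and 1562 UMIs). Alveolar macrophages had 16.6 to 51.8 CPM and club cells 7.59 to 30.3 CPM. MM cells held 45.77% of the 142 Cx3cl1 UMIs of lung metastasis 5, at a low level, and 0.49 to 3.37 CPM in the sorted libraries.

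Beside the members, 24 other genes of these pathways were followed. In C1q macrophages 15 were tested, and 4 were called in each comparison with lung, where 7.53% (metastases) and 8.24% (primary tumors) of all genes were. Ccr1, a receptor of other CC chemokines, rose by 1.80 in metastases and 1.90 in primary tumors on the log2 scale (edgeR adjusted p = 0.00193 and 0.00213). The chemokines Ccl6 (1.78 and 1.79, adjusted p = 0.00708 and 0.0142) and Ccl9 (1.42 and 1.51, adjusted p = 0.00235 and 0.00357) rose with it. Ccl24, an eotaxin, rose in primary tumors by 3.64 (adjusted p = 0.0024), and Nfkb1, a subunit of NF-kB, fell by 1.07 in metastases (adjusted p = 0.0247). The list's median was 0.69 in metastases and 0.48 in primary tumors, beside 0.00 and -0.04 over all genes.

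In fibroblasts 19 were tested, of which 1 was called in metastases and 2 in primary tumors against lung, beside 1.08% and 11.9% of all genes. Il34, a growth factor of macrophages that acts through CSF1R, rose by 5.36 in metastases (edgeR adjusted p = 0.0312) and by 4.73 in primary tumors (adjusted p = 0.00963) against lung. Ccl5, a T cell chemokine, was lower in primary tumors by -7.43 (adjusted p = 0.00963), with 8.93 to 447 CPM in lungs. No other gene of the list was called there, and none between the tumor sites, where edgeR found 0 of 19. In that comparison the median of the list was -0.48, beside 0.03 over all genes.

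In endothelium 13 were tested. Ackr1, the decoy receptor of venules that binds CCL2 and CCL7, was at 120 to 156 CPM in primary tumors, 1.61 to 21.9 in metastases and 0.146 to 5.61 in lungs, with log2 changes of 5.52 against lungs (edgeR adjusted p = 1.5e-05) and -5.15 for metastases against primary tumors (adjusted p = 0.000414). Adam10, the sheddase of CX3CL1, was higher in primary tumors than in lungs by 0.88 (adjusted p = 0.0076) and lower in metastases than in primary tumors by -1.10 (adjusted p = 0.00568). In metastases against primary tumors 4 of 13 passed, beside 11.8% of all genes, with Csf1, a growth factor of macrophages, higher by 1.73 (edgeR adjusted p = 0.00842) and Il1r1, the receptor of IL-1, lower by -1.21 (adjusted p = 0.0291). In primary tumors against lungs 6 of 13 passed, beside 28.1% of all genes, with Il1r1 (0.93) also higher and Ackr2 (-1.62), Csf1 (-1.62) and Rela (-1.12) lower. None passed in metastases against lungs by edgeR.

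Across 34 points of cell type and tissue, the genes most like Ccl8 by Pearson's r of log2 level were Ccl12 (0.93), Fcrls (0.88) and C1qa (0.86), and those most like Ccl2 were Tubb6 (0.86), Ccl7 (0.82) and Guca1a (0.80). Ccr2 and Cx3cr1 shared Ms4a6b as the nearest gene (0.91 and 0.93) and had an r of 0.86 with each other. Cx3cl1 was nearest to Adgrl2, Dcbld1 and Bcl6b (0.84 each). The points share libraries and depth, and the values are a description over 12595 genes.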

How the data were processed

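Droplet libraries of sorted cells from unchallenged lungs, lung metastases and primary tumors were analyzed as deposited by the authors, in 1 table of raw UMI counts per gene and cell. Per the labels' processing notes the authors used Cell Ranger 6.1.1 and Seurat 3.2.2 with GRCm38 (mm10), and the study's methods state that cells with extreme feature numbers or high ribosomal or mitochondrial shares had been removed. No doublet caller was run here. Where 2 names held the same cells, 1 was kept. The members and lists were chosen with earlier results of these data known.

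Cells were clustered in Python 3.11.15 (numpy 2.4.6, scipy 1.17.1, scikit-learn 1.9.0, igraph 0.11.9; 2000 variable genes without the members, 17 principal components, 20 neighbors, Leiden resolution 0.5) and sub-clustered with 12 components. Clusters took the name of the list with most raised markers (at least 3). UMI counts were summed per library and type with at least 20 cells, and tissues were compared within each of 3 types, and sorted MM cells between tumor sites, by edgeR 4.0.16 quasi-likelihood tests (R 4.3.3, threshold 0.05, Benjamini-Hochberg over all genes), with DESeq2 1.42.0 as an alternative. Types were compared inside libraries by exact sign-flip tests of the log2 CPM ratio (pseudocount 1). Shares of cells were taken after thinning to 1000 UMIs. Mouse names tie tumor libraries 5 and 6 of both sites to the same mice, but copies of a library carried different mouse names, so p-values measure the spread between these libraries, which may be technical. All members, and the pathway genes that passed, were named. In simulated data 63.5%, 97.8%, 96% and 77.8% of genes changed 8-fold were recovered in fibroblasts, C1q macrophages, endothelium and sorted MM cells (metastasis against primary tumor; 10642, 6326, 9261 and 13953 genes), and 0%, 22.2%, 14.6% and 6.19% of those changed 2-fold.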

Additional observations from a re-analysis of the deposited data

Results flagged for a closer look

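Cx3cr1 in endothelial cells of unchallenged lung 6 was at 31.34 CPM, far from the other 3 lungs, which reached from 1.006 to 5.612 CPM. In general capillary endothelial cells the same library had 38.54 CPM, and the others 1.193 to 5.142 CPM. In all, 36 groups of 4 libraries were looked at and 2 held such a library, where chance gives about 1 in 20. The library is the one in which Ccr2 and Cx3cr1 were also found in epithelial and B cells.

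The sorted MM library of lung metastasis 5, whose other cells entered no fibroblast comparison, held 23 cells classed as fibroblasts. A tdTomato- sort should remove host cells, and whether these were host cells was not tested. Of the 31 such cells in sorted lung metastasis libraries, 29 lay in the cluster led by Ccl11, Apod and Lum. That cluster held 4.706% of metastasis TME fibroblasts. The 23 cells had 180.2 CPM of Ccl2 and 180.2 CPM of Ccl7, from 6 UMIs each, against at most 16.01 and 2.224 CPM in the fibroblasts of unchallenged lungs and 55.0 and 29.7 CPM in those of lung metastasis TME 5, which carries the same mouse name.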

How the results depend on the processing

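Of 877 member fold changes under the alternatives, 797 kept their direction and side of the threshold, 36 passed it newly, 26 lost it and 18 turned direction; of 90 values of the pairs of cell types, 49 kept both, 40 lost the threshold and 1 passed it. The cause of a change was not tested unless named.

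Counts of called genes in fibroblasts, against 119 for metastases versus primary tumors and 121 for metastases versus lungs, were 318 and 545 by DESeq2, 340 and 679 with no filter on low counts, 197 and 60 with at least 10 cells, 186 and 335 without both shallow libraries, 482 and 669 without sub-clusters led by another list and 48 and 3 without the mesothelial sub-cluster. For primary tumors versus lungs, against 1324, they were 2415 with no filter and 756 without both shallow libraries. In C1q macrophages, metastases versus primary tumors had 20 by DESeq2, 227 with no filter and 7 without both shallow libraries. Metastases versus lungs had 842 with no filter against 533, and primary tumors versus lungs 1493 with no filter and 364 without both shallow libraries against 583. In endothelium, the counts for metastases versus primary tumors, metastases versus lungs and primary tumors versus lungs were 670, 194 and 1617 without both shallow libraries and 100, 25 and 916 without sub-clusters led by another list, and metastases versus lungs had 784 with no filter and 125 at resolution 1.0. Sorted MM cells had 15 by DESeq2 and 76 with no filter. The last 3 alternatives on libraries and sub-clusters (both shallow libraries, sub-clusters of another list, mesothelial cells) were chosen after seeing the data.

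Fold changes that turned direction were all under the threshold. Cx3cl1 in fibroblasts (metastases versus primary tumors) was 0.2924 without mesothelial cells. Ccr2 in C1q macrophages (primary tumors versus lungs) was 0.02531 with no filter and 0.1523 without sub-clusters of another list. Ccr2 in endothelium was 0.4717 at resolution 1.0 (metastases versus primary tumors), and without both shallow libraries 0.08718 and 0.8492 for metastases and primary tumors versus lungs. Cx3cl1 in endothelium (metastases versus primary tumors) was 0.4749 without sub-clusters of another list, and Cx3cr1 in sorted MM cells was 1.709 over all cells.

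By the mouse names, equal numbers join the tumor libraries of 1 mouse for 5 and 6, in part for 1-3, and not for 4 or the lungs, so the fit without the replicate block was kept. In endothelium the deviations of the 2 tumor sites correlated at 0.165, 0.16 and 0.149 for 5, 6 and 1-3 and at 0.00694 for 4, but in fibroblasts at -0.123 and -0.0672 for 5 and 6. With the replicate block, C1q macrophages had 12 called genes between the tumor sites and sorted MM cells 42, the other 8 counts stayed within 1.5 times, and Cx3cl1 in fibroblasts turned to 0.3644. Among member calls in fibroblasts, the block gained Ccl2 for metastases versus lungs (adjusted p = 0.0454) and lost Ccl8 for primary tumors versus lungs (adjusted p = 0.0541).

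Of the pairs, Ccl8 passed at 3.723 with at least 10 cells (adjusted p = 0.0156). Without both shallow libraries the adjusted p rose to 0.0729 at ratios of -2.025 for Ccl2, -2.13 for Ccl7, 4.931 for Ccl12, 0.4588 for Ccr2, 0.9739 for Cx3cr1 and 2.614 for Cx3cl1, with fewer libraries. Without sub-clusters led by another list, also tried after seeing the data, the ratio of Cx3cr1 was 0.6371 in 5 libraries and did not pass.

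Leaving out 1 library gave 2 to 363, 7 to 299 and 394 to 1326 called genes in fibroblasts (in the order given for endothelium), 0 to 8, 275 to 728 and 106 to 818 in C1q macrophages, 760.0 to 1540.0, 122 to 859 and 2056 to 3219 in endothelium and 7 to 60.0 in sorted MM cells. The ratios ranged from -2.095 to -1.331 for Ccl2, -2.533 to -1.858 for Ccl7, 4.125 to 4.931 for Ccl12, 0.3623 to 0.4876 for Ccr2, 0.6928 to 1.053 for Cx3cr1 and 1.795 to 2.713 for Cx3cl1. Fold changes that turned reached from -0.6209 to 0.06643 for Cx3cl1 in fibroblasts (between the tumor sites), from -4.397 to 1.645, -5.087 to 0.09818 and -2.436 to 0.2144 for Ccr2 in endothelium, and from -8.976 to 0.8019 for Ccl8 in sorted MM cells.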
